A study of Mus musculus with 74 samples.

Results

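Nuclear slices were compared by the call of the satellite-rich window at the centromeric end of chromosome 9. The slices were selected on their own calls. In the table of positive and negative 40 kb windows, every library with at least 1% of the windows of chromosomes 1 to 19 positive was kept, and the kept libraries were split by the call of the first sequenced window of chromosome 9 (chr9:3000001-3040000, mm9). Of the 74 libraries in the series, 69 passed the limit. The chr9 window was positive in 48 of them and negative in 21. These are called slices with and without the chr9 window below. The names stand for the call only, since a satellite read can come from any chromosome.

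The libraries were made by genome architecture mapping (GAM), in which frozen cells are cut into thin cryosections, a single nuclear profile (the part of 1 nucleus that lies in 1 slice) is isolated by laser microdissection, and its DNA is amplified and sequenced. All 74 libraries hold 1 nuclear profile each (1NP) from 46C, an untreated line of mouse embryonic stem cells of strain 129/Ola, in which a green fluorescent protein gene was put into the neural gene Sox1. The cells were grown with serum and leukaemia inhibitory factor and moved to serum-free ESGRO Complete medium for the last day before harvest. The labels give 1 group and do not say how many cultures the slices came from, so p-values below measure the spread between these slices only.

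Mouse chromosomes are acrocentric: the centromere lies at 1 end, and the numbering of each chromosome starts there. The DNA next to the centromere is made of major satellite, a short AT-rich unit repeated in tandem over long arrays, which is packed in constitutive heterochromatin. In interphase nuclei the pericentromeric arrays of several chromosomes gather in chromocentres, so that the centromeric ends of different chromosomes can lie near each other. The arrays themselves are missing from the mm9 assembly, in which all 19 autosomes open with 3 Mb of unknown bases.

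The chr9 window held such a repeat. It had 0 unknown bases and a GC content of 35.5%. When the window was set against itself at every shift from 20 to 1000 bases, the best shift was 234 bases, at which 69.4% of bases were identical, compared with a median of 31.1% over all shifts. At a shift of 2 units, 57.95% were identical. The split of the slices rests on the call of the whole window, and which of its bases the reads came from is unknown. A pair of neighbouring copies is shown as an example. It was chosen where successive copies were most alike, so its identity is not typical of the window. The copies lie at chr9:3032076-3032309 and chr9:3032310-3032543 (mm9, plus strand), each 234 bases long. They differ at 9 bases, which are in capitals (96.2% identical).

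unit_A: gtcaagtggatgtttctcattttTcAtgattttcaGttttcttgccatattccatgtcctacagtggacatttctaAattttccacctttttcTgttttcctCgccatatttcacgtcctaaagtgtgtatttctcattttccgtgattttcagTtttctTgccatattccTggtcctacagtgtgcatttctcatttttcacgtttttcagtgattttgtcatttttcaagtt

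unit_B: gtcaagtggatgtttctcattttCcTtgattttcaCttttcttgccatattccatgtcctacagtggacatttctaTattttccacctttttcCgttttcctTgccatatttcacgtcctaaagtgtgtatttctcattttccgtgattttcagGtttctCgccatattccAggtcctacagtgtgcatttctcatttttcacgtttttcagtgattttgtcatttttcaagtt

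Both copies overlap the gene model Gm10106 and lie under the long non-coding RNA model Gm16869, which is annotated on the minus strand at chr9:3000282-3038313. In all, 13 gene models of GENCODE overlap the window, Gm16869 and 12 labelled protein coding on the plus strand (Gm10722 at chr9:3000922-3002330 is the first of them and Gm10715 at chr9:3037111-3038316 the last). None of these has a role known well enough to state here.

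Because a satellite read can come from any chromosome, the rest of the autosomes was searched for the same sequence. The window holds 16840 distinct 31-base words, counted on both strands. Matches to these words were counted at every position, so a word that recurs in a window counts each time. The numbers of shared 31-base words below are such counts. At least 1 match occurred in 16 other autosomal windows, and at least 100 matches in 4. Among the windows at 3-13 Mb of the other autosomes, 4 had any match and 1 had at least 100. The windows with the most matches outside chromosome 9 were on chromosomes 2, 12 and 13. The longest runs that the first 2 of these share, base for base, with the minus strand of the chr9 window are shown to make the likeness visible. The run on chromosome 2 (chr2:98507063-98507161, 99 bases) lies in a window that overlaps exons of the gene models Gm10800 and Gm10801. The run on chromosome 12 (chr12:3109872-3110029, 158 bases) lies in a window that overlaps the pseudogene Gm9075.

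chr2_98480000: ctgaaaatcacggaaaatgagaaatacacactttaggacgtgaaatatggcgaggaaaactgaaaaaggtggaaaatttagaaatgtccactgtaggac

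chr12_3080000: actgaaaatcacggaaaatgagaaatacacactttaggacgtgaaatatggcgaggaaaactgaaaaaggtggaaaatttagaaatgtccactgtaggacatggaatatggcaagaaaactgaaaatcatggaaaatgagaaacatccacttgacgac

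The windows that carry this sequence did not all follow the chr9 call. The window on chromosome 2 (chr2:98480001-98520000, 531 shared words) was positive in all 69 slices, 48 with and 21 without the chr9 window. The window on chromosome 12 (chr12:3080001-3120000, 180 shared words) was positive in 22 slices, all of them with the chr9 window. The window on chromosome 13 (chr13:77560001-77600000, 79 shared words) was positive in 3 slices with it and 1 without. On chromosome 9 itself, the next window (chr9:3040001-3080000, 4029 shared words) was positive in 9 of the 48 slices and 1 of the 21. A window much farther along the same chromosome (chr9:35080001-35120000, 122 shared words), which holds exons of Gm5614 and of Rpusd4, a mitochondrial pseudouridine synthase gene, was positive in 43 of the 48 slices and 1 of the 21. The counts on chromosome 9 are a description, since the rule used that chromosome. All comparisons below leave chromosome 9 out unless they say so, and use the 18 other autosomes.

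Over all slices, the split went with coverage. Distal coverage, the percent of windows beyond 13 Mb called positive over the 18 autosomes, ranged from 2.33% to 13.3% with a median of 6.61% in slices with the chr9 window, and from 1.67% to 8.95% with a median of 4.33% in slices without it. The means were 6.65% ± 2.47 (SD, n = 48) and 4.67% ± 2.25 (SD, n = 21). The difference of 1.98 points had an SE of 0.606 (two-sided permutation test, p = 0.00268), was smaller than the SD within either group, and left the ranges overlapping. Split by the prefix of the library names, described below, it was 2.94 points in f14 (permutation test, p = 0.000890) and 0.0213 points in f13 (p = 0.983). All other tests were made within 5 strata of distal coverage, ranked from the sparsest slices to the fullest. Within these strata the slices with the chr9 window still had 0.499 points more distal coverage (SE 0.251). The main tests of counts, coverage, co-segregation and distance bins over the 18 autosomes together are therefore given a second time. The second form is a least squares fit with distal coverage and its square as terms. The tests of single windows, and those within a name prefix or with the prefix held fixed, are given within strata only. So are the tests without windows of shared sequence and without isolated positive windows. None of these was corrected for that remainder.

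Close to the limit of 1%, the excluded libraries f13c3 and f14c7 had coverages of 0.474% and 0.827% of the windows of chromosomes 1 to 19, and the included libraries f14f7, f14g2 and f14d3 had 1.68%, 1.69% and 2.12%. The other excluded libraries, f13f3, f14b4 and f13f5, had 0.0210%, 0.0728% and 0.0825%. The chr9 window was negative in all 5 excluded libraries, negative in f14f7 and f14g2, and positive in f14d3.

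Slices with the chr9 window held the first 10 Mb of more chromosomes. In these slices, between 4 and 18 of the 18 autosomes had at least 1 positive window at 3-13 Mb, with a median of 12. In slices without the chr9 window it was between 2 and 15, with a median of 8. The lowest counts were those of f13c6 (4 autosomes) among slices with the window, and of f13d1 and f14a7 (2 each) among slices without it. The highest were f14b6, in which all 18 autosomes had a positive window, and f14a4 and f14f7 (15 each), which lacked the chr9 window. The groups overlapped over most of this range.

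The means were 12.3 ± 3.41 autosomes (SD, n = 48) and 8.33 ± 4.39 (SD, n = 21). At like distal coverage the difference was 3.82 autosomes (SE 1.05, two-sided permutation test within strata, p = 0.00128, 0.00384 after Benjamini-Hochberg adjustment over 6 tests), and 3.39 in the least squares fit (SE 1.05, adjusted p = 0.00514). In f14 alone it was 2.58 autosomes and missed the threshold (SE 1.58, permutation test, p = 0.144). In the sparsest stratum (distal coverage 1.67% to 3.70%), 5 slices with the window had a mean of 12.8 autosomes and 9 slices without it a mean of 8. In the fullest (8.36% to 13.3%), 10 slices had a mean of 14 and 3 slices a mean of 10.3. The order was turned in 1 of the strata, at 6.75% to 8.26%, where the mean of 13 slices was 11.9 and the only slice without the window had 13.

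A single positive window is a weak sign of a chromosome end, so larger amounts were counted as well. With at least 10% of its 250 windows at 3-13 Mb required to be positive, a median of 6.5 autosomes (0 to 12) counted in slices with the chr9 window, against a median of 2 (0 to 5) in slices without it. The means were 5.69 ± 2.78 (SD, n = 48) and 2 ± 1.58 (SD, n = 21), and the difference within strata was 2.65 autosomes (SE 0.600, permutation test, p = 5.00e-05), or 2.38 (SE 0.577, p = 0.000110) by least squares. At least 9 autosomes reached this amount in 5 of the 48 slices and in 0 of the 21. The best covered single autosome of a slice had a median of 35% of its proximal windows positive with the chr9 window and 18.8% without it.

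**Figure D1:**
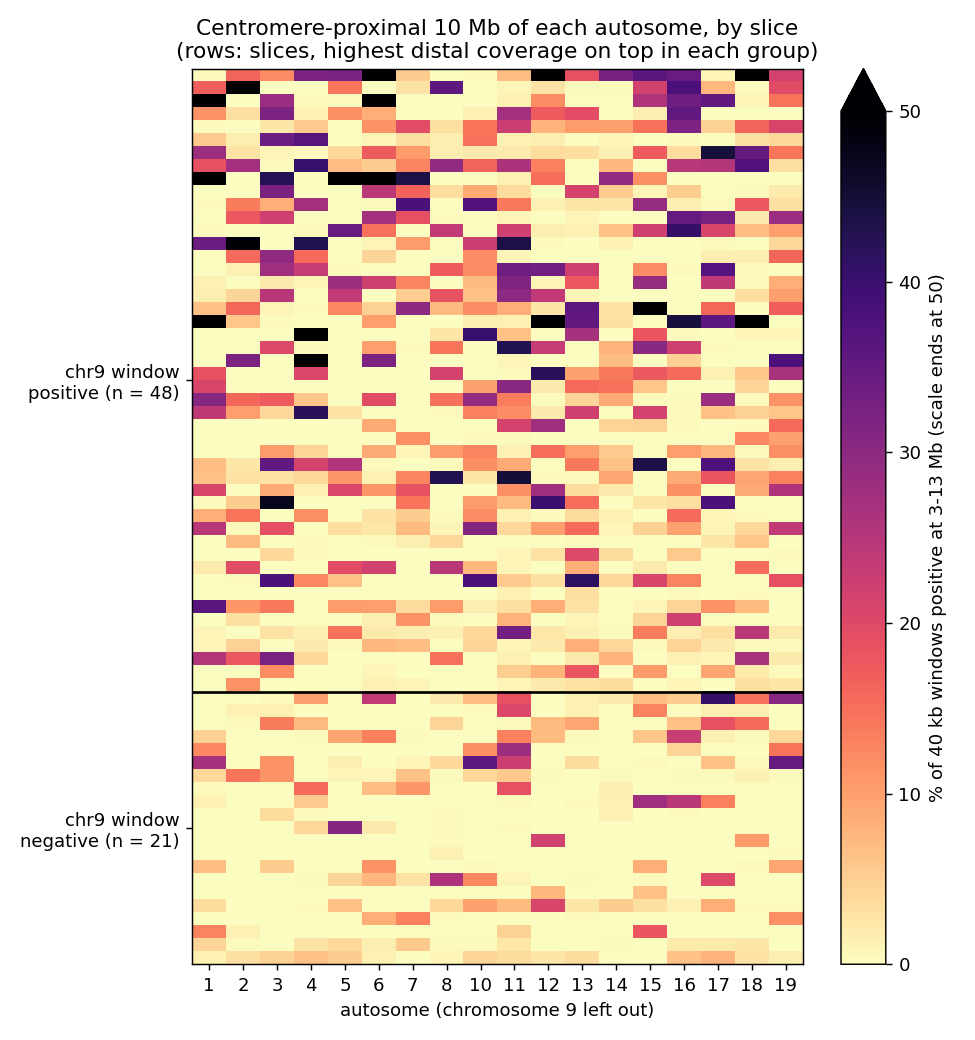
Percent of the 250 windows at 3-13 Mb called positive, for each slice (rows) and each of the 18 autosomes other than chromosome 9 (columns), on a colour scale that ends at 50%. The line separates the 48 slices with the chr9 window (above) from the 21 without it (below), each sorted by distal coverage, and the rows above the line show more autosomes in dark colours (a median of 6.5 autosomes at 10% or more, against 2).

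The same regions were also better covered relative to the rest of the genome. Proximal coverage, the percent of windows at 3-13 Mb positive over the 18 autosomes, ranged from 0.289% to 23.8% with a median of 9.52% in slices with the chr9 window, and from 0.0889% to 9.02% with a median of 2.82% in slices without it. In 26 of the 48 slices with the window it lay above the highest value of the other group, whereas 1 of the 21 slices without it lay below the lowest value of the slices with it. Proximal coverage exceeded distal coverage in 34 of 48 slices with the chr9 window and in 5 of 21 without it.

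Proximal minus distal coverage was 2.27 points ± 3.61 (SD, n = 48) with the window and -1.49 points ± 2.13 (SD, n = 21) without it. At like distal coverage this was a difference of 3.68 points (SE 0.944, permutation test within strata, adjusted p = 0.00144), and of 3.73 points in the least squares fit (SE 0.932, adjusted p = 0.000600). The ratio of proximal to distal coverage had a median of 1.35 (0.0686 to 2.65) with the window and 0.673 (0.0264 to 1.85) without it. Slices with the chr9 window thus lay on both sides of equal coverage, and most of the slices without it lay below.

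**Figure D2:**
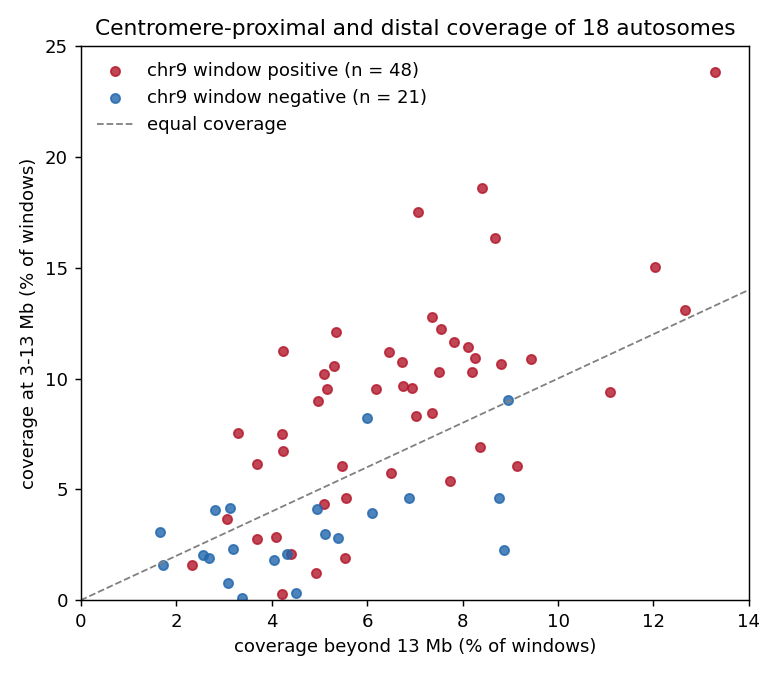
Coverage at 3-13 Mb against coverage beyond 13 Mb, each as the percent of 40 kb windows positive over 18 autosomes, 1 point per slice. The dashed line marks equal coverage, above which lie 34 of the 48 slices with the chr9 window and 5 of the 21 without it.

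The opposite ends of the chromosomes served as a comparison. In the last 10 Mb of each autosome, the telomeric end of the long arm, a positive window was found in 3 to 18 autosomes (median 9) in slices with the chr9 window and in 2 to 17 (median 9) in slices without it. The means were 9.81 ± 3.84 (SD, n = 48) and 8.81 ± 3.52 (SD, n = 21). The difference within strata was 0.62 autosomes (SE 0.987, permutation test, p = 0.547) and changed sign in the least squares fit, at -0.23 (SE 0.984, p = 0.836), so a direction could not be given for the telomeric count. The last 10 Mb is part of the distal coverage by which slices were matched, which can make its difference smaller, whereas the first 10 Mb is not. With the last 10 Mb left out of the matching, a setting chosen after seeing the data, the telomeric difference was 0.49 autosomes (SE 1.04, permutation test, p = 0.664) within strata and -0.17 (SE 1.01, p = 0.878) by least squares. Percent coverage of the last 10 Mb was 6.12% ± 3.45 (SD, n = 48) and 5.36% ± 3.46 (SD, n = 21) before matching. Matched on distal coverage, the difference was -0.760 points within strata (SE 0.738, permutation test, adjusted p = 0.291) and -1.45 points by least squares (SE 0.688, adjusted p = 0.0476).

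Whether centromeric and telomeric ends differed in this respect was tested on the difference between the counts of each slice. The proximal count minus the telomeric count was 2.46 ± 4.05 (SD, n = 48) with the chr9 window and -0.48 ± 5.21 (SD, n = 21) without it. The difference within strata was 3.20 autosomes (SE 1.31, permutation test, adjusted p = 0.0256), and 3.62 in the least squares fit (SE 1.27, adjusted p = 0.0104). This test rested on single slices: without f13e4 (12 proximal and 3 telomeric autosomes, chr9 window positive) its permutation p was 0.0644, and it also missed the threshold without f13f2 (8 proximal and 17 telomeric, chr9 window negative). Over all slices left out in turn the difference was 2.60 to 3.63 autosomes. It missed the threshold within either name prefix, at 4.85 autosomes in f13 (SE 2.37, permutation test, p = 0.0559) and 2.59 in f14 (SE 2.02, p = 0.178). With the last 10 Mb left out of the matching it was 3.06 autosomes (SE 1.32, permutation test, p = 0.0273) within strata and 3.37 (SE 1.29, p = 0.0137) by least squares.

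**Figure D3:**
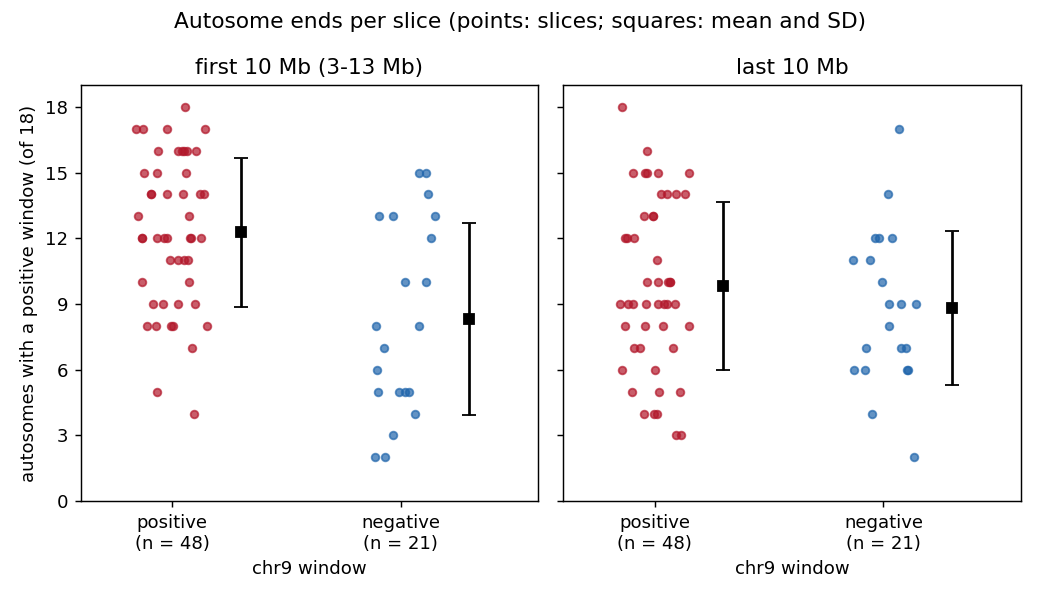
Number of the 18 autosomes with at least 1 positive window in the first sequenced 10 Mb (left) and in the last 10 Mb (right), 1 point per slice with random sideways shifts, and the mean and SD of each group as a square with bars. On the left the means are 12.3 and 8.33 autosomes, and on the right 9.81 and 8.81.

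Co-segregation in GAM is the presence of 2 loci in the same slice, and trans co-segregation is that of loci on different chromosomes. For each slice and each possible pair of the 18 autosomes, the percent of all pairs of windows, 1 from each chromosome end, in which both windows were positive was taken and averaged over the chromosome pairs. For the centromeric ends, this ranged from 0.000492% to 5.44% with a median of 0.811% in slices with the chr9 window, and from 3.14e-05% to 0.733% with a median of 0.0699% in slices without it. The means were 0.930% ± 0.970 (SD, n = 48) and 0.127% ± 0.189 (SD, n = 21). At like distal coverage the difference was 0.599 points (SE 0.206, permutation test within strata, adjusted p = 0.00607), and 0.519 points in the least squares fit (SE 0.183, adjusted p = 0.00398). In f14 alone it was 0.362 points and missed the threshold (SE 0.183, permutation test, p = 0.0622).

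The telomeric ends had a trans co-segregation of 0.434% ± 0.474 (SD, n = 48) and 0.353% ± 0.463 (SD, n = 21). The centromeric minus the telomeric value was 0.496 points ± 0.938 with the chr9 window and -0.226 points ± 0.484 without it, and this difference within strata was 0.676 points (SE 0.239, permutation test, adjusted p = 0.00607; 0.686 points in the least squares fit, SE 0.228, adjusted p = 0.00398). With the last 10 Mb left out of the matching it was 0.654 points (SE 0.229, permutation test, p = 0.00410) within strata and 0.637 points (SE 0.228, p = 0.00280) by least squares. Within single prefixes it missed the threshold, at 0.626 points in f13 (SE 0.351, permutation test, p = 0.0944) and 0.359 points in f14 (SE 0.257, p = 0.183). Trans co-segregation is a product of coverages, so it rises with the coverage of the ends themselves and is not a separate line of evidence from the counts above.

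Pairs of autosomes were then looked at one by one. Both ends of a pair had a positive window in a median of 47.9% of the slices with the chr9 window (29.2% to 77.1% over all pairs of the 18 autosomes) and in a median of 23.8% of those without it (9.52% to 52.4%). This was more frequent with the chr9 window in all but 2 of the pairs. The pairs share chromosomes and slices and were not tested, and these shares were not matched on coverage.

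The difference in coverage was not limited to the first 10 Mb. In 10 Mb bins counted from the start of the sequence, the difference within strata was 4.18 points at 3-13 Mb (SE 0.986), 3.31 at 13-23 Mb (SE 0.821), 2.18 at 23-33 Mb (SE 0.738) and 1.84 at 33-43 Mb (SE 0.624). All of these 4 bins passed the permutation test (adjusted p = 0.000420, 0.000420, 0.00501 and 0.00501). At 43-53 Mb the difference was 1.02 points (SE 0.657, permutation test, adjusted p = 0.144), and in the last 10 Mb it was -0.760 points, as given above. By least squares, a fit added after seeing the data, the first 4 bins gave 3.73, 2.79, 1.66 and 1.26 points (permutation test, adjusted p = 0.000600, 0.000660, 0.0356 and 0.0356), the bin at 43-53 Mb 0.698 points (adjusted p = 0.179) and the last 10 Mb -1.45 points, which then passed the threshold with lower coverage in slices with the chr9 window. The sizes thus became smaller with distance from the centromere over the bins measured in both fits, although whether neighbouring bins differed from each other was not tested. Bins beyond 13 Mb are part of the distal coverage by which slices were matched, which can make their differences smaller.

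In 1 Mb bins from 3 to 33 Mb, coverage was higher with the chr9 window in 26 of 30 bins by the permutation test at an adjusted p under 0.05, including each of the first 10, and lower in 0. The first bin that missed the threshold started at 26 Mb. By least squares, 21 of the 30 bins were higher, each of the first 10 among them, and 0 lower. In that fit the first bin that missed the threshold started at 16 Mb (1.54 points, SE 1.06, permutation test, adjusted p = 0.140). In the bin nearest the centromere, at 3-4 Mb, coverage was 9.47% ± 5.32 (SD, n = 48) and 3.12% ± 2.81 (SD, n = 21), and in the bin at 12-13 Mb it was 9.02% ± 5.47 and 2.83% ± 1.99. The first 10 Mb was therefore raised along its length and not at its first windows only.

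**Figure D4:**
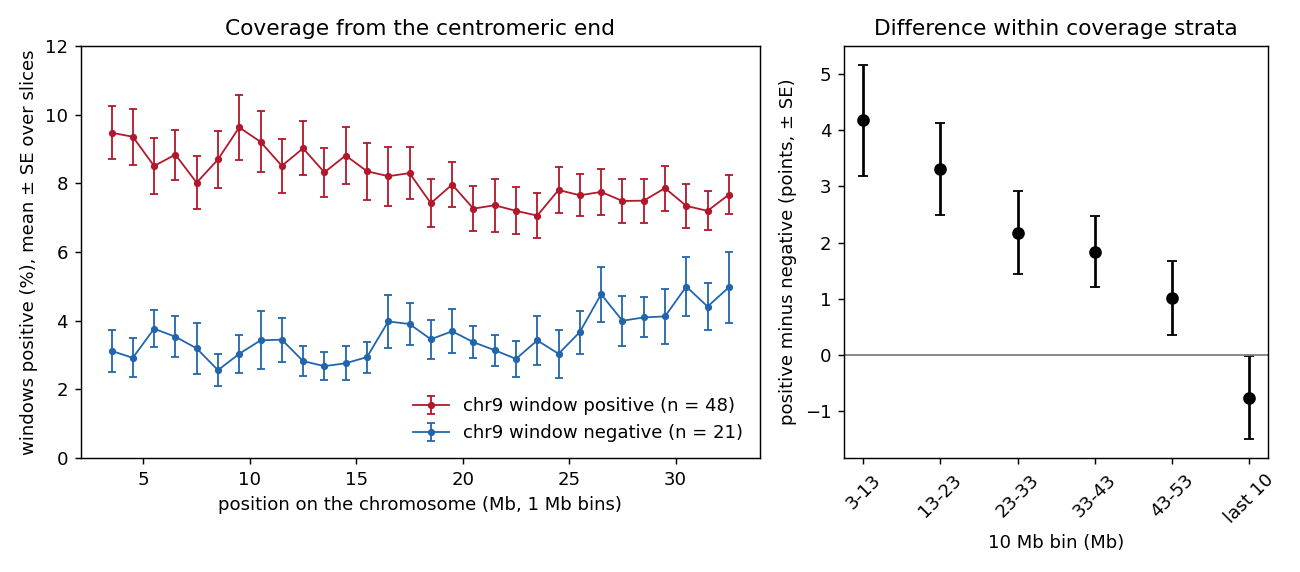
Left, percent of windows positive in 1 Mb bins from 3 to 33 Mb, averaged over 18 autosomes, as the mean and SE over slices with (n = 48) and without (n = 21) the chr9 window. Right, difference in points (with minus without, with its SE) within strata of distal coverage in 10 Mb bins and in the last 10 Mb, going from 4.18 at 3-13 Mb to -0.760.

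Chromosome by chromosome, mean proximal coverage was higher with the chr9 window for all 18 autosomes, with differences within strata from 0.956 to 8.72 points and a median of 3.88. Beyond 13 Mb the same difference was positive for 13 of 18 autosomes, with a median of 0.502 points. Slices were matched on coverage beyond 13 Mb, which can make these distal differences smaller, so the proximal and distal counts are not a like comparison. The differences of single autosomes had wide errors, with SEs of 1.58 to 4.48 points. By the permutation test, 0 of the 18 passed after adjustment (background 0% called) and 4 were under 0.05 before it. By least squares 1 passed, chromosome 13, at 7.82 points (SE 2.67, permutation test, adjusted p = 0.0108).

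Within strata, the largest differences were on chromosomes 3, 13 and 1. By least squares they were on chromosomes 13, 3 and 2, at 7.82, 7.80 and 6.24 points, with chromosome 1 at 5.27. On chromosome 3 proximal coverage was 11.8% ± 14.3 (SD, n = 48) against 2.44% ± 4.33 (SD, n = 21), and a proximal window was positive in 32 of 48 and 8 of 21 slices (8.72 points within strata, SE 3.60, permutation test, adjusted p = 0.0947). Chromosome 13 had 9.15% ± 10.9 against 1.09% ± 2.18, positive in 38 and 10 slices (7.23 points, SE 2.76, adjusted p = 0.0626). Chromosome 1 had 11.5% ± 18.2 against 3.73% ± 6.57, positive in 31 and 11 slices (7.10 points, SE 4.48, adjusted p = 0.249). At least 10% of the proximal windows were positive in 20 of 48 and 3 of 21 slices for chromosome 3, in 18 and 0 for chromosome 13, and in 16 and 3 for chromosome 1.

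The smallest differences were on chromosomes 17, 19 and 11, at 1.35 (SE 3.66), 1.10 (SE 2.75) and 0.956 points (SE 3.27). Chromosome 11 was well covered in both groups, at 11.4% ± 13.5 and 7.01% ± 9.16, and a proximal window of it was positive in 47 of 48 and 15 of 21 slices. Its first window (chr11:3000001-3040000), which overlaps exons of the pseudogene Pisd-ps1 and of Sfi1, a gene for a centrosome protein, shares 65 words with the chr9 window and was positive in 24 and 2 slices.

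**Figure D5:**
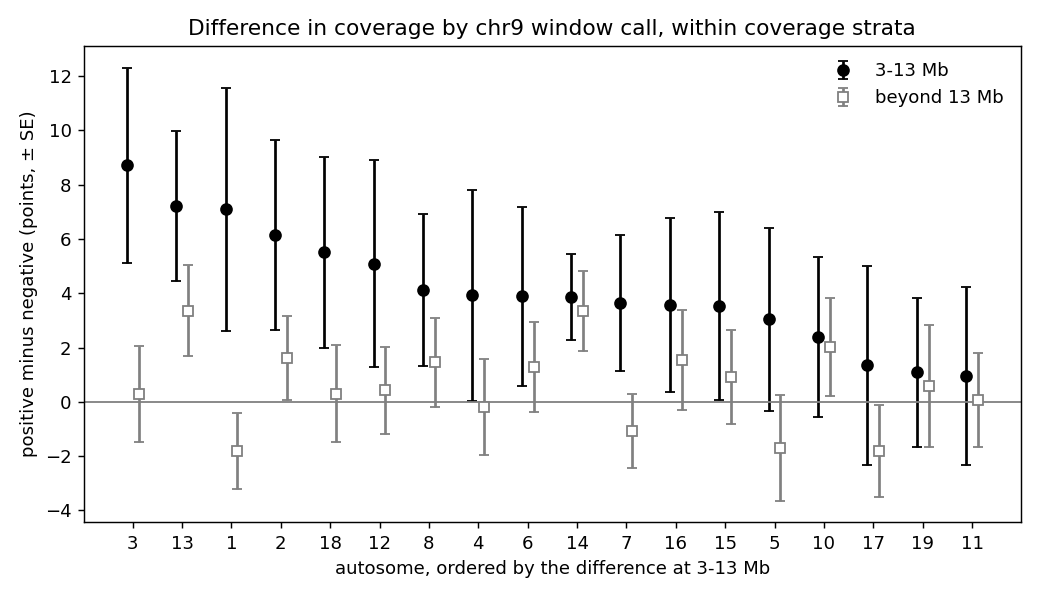
Difference in percent of windows positive between slices with and without the chr9 window, within strata of distal coverage, for each of 18 autosomes at 3-13 Mb (filled circles) and beyond 13 Mb (open squares), with SE. All 18 circles lie above 0, from 8.72 points on chromosome 3 to 0.956 on chromosome 11, and 13 of the 18 squares do. The squares show the coverage on which slices were matched, which can make their differences smaller.

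Chromosomes 9 and X were left out of these counts and are described here. A window at 3-13 Mb of chromosome X was positive in 21 of 48 slices with the chr9 window and in 8 of 21 without it, and the mean coverage there was 3.30% ± 6.63 and 3.83% ± 8.38. On chromosome 9 itself, the rest of the first 10 Mb had a positive window in 32 of 48 and 13 of 21 slices, with a coverage of 8.72% ± 10.2 and 5.83% ± 8.08. So 16 of the 48 slices positive for the satellite-rich window had no other positive window in the first 10 Mb of its own chromosome.

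At the level of single windows, 25944 autosomal windows were positive in at least 5 and negative in at least 5 slices and were tested by an exact test stratified by distal coverage. The only window that passed after adjustment was higher with the chr9 window (background 0.00385% called), and it was chr9:35080001-35120000, which shares satellite words. As it lies on the chromosome of the rule, which entered the scan for the adjustment, nothing is read from this call. The number of windows called was 0 with isolated positive windows set to negative. It was 3 where at least 10 slices were required on each side. In the main scan, before adjustment, 136 windows were higher at p under 0.05 (0.524% of those tested) and 358 were lower (1.38%). These shares do not give a direction, since with 48 and 21 slices a window positive in few slices can reach such a p by lying in the smaller group but not by lying in the larger. Of the 2522 windows tested at 3-13 Mb of the other autosomes, 41 were higher (1.63%) and 4 lower (0.159%), and without windows that share a word with the chr9 window it was 39 and 4 of 2518. Their median difference in detection within strata was 6.01 points and 76.8% of them were detected more frequently with the chr9 window, against 1.76 points and 59.5% over all windows. Windows entered the scan only with at least 5 positive slices. The 48 slices with the chr9 window had the higher proximal coverage, so proximal windows could pass this filter more easily through that group. The values for the windows at 3-13 Mb are therefore partly set by the filter and are a description only. Neighbouring windows are not independent.

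Outside chromosome 9, 2 windows came nearest to the threshold in the main scan. The window chr6:103560001-103600000, in the neural cell adhesion gene Chl1 and overlapping its exons, was positive in 47 of 48 slices with the chr9 window and in 11 of 21 without it (exact test, p = 1.30e-05, adjusted p = 0.169). The window chr11:3080001-3120000 was positive in 42 of 48 and 6 of 21 slices (exact test, p = 3.77e-05, adjusted p = 0.326). It lies in the first 10 Mb of chromosome 11 and overlaps exons of Drg1, Eif4enif1, Sfi1, Gm12735 and Fau-ps2. Neither window shared a 31-base word with the chr9 window, and of shorter words of 16 bases they shared 1 and 0. The next 4 by p were positive in few slices, most of them without the chr9 window, and windows confined to as few slices with it could not rank here. They included chr5:121280001-121320000 (1 of 48 and 6 of 21), which holds Oas1f and Oas1h of the oligoadenylate synthetase gene family. They also included chr1:166320001-166360000 (1 and 5), in the nucleoside diphosphate kinase family gene Nme7, and chr16:82240001-82280000 (0 and 5), which has no annotated gene. Last among them was chr1:123400001-123440000 (0 and 5), which holds exons of Ccdc93 and of the serotonin receptor gene Htr5b. Their adjusted p was 1 in each case.

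Windows with an exact sequence match were also left out of the comparisons. Without windows that hold at least 1 word of the chr9 window or are positive in over 15 of all 74 libraries, a setting chosen after seeing the data, the differences within strata were 3.54 autosomes (SE 1.09, permutation test, p = 0.00309) for the proximal count, 3.65 points (SE 0.940, p = 0.000260) for proximal minus distal coverage and 0.590 points (SE 0.204, p = 0.00392) for trans co-segregation. These values are close to those with all windows (3.82, 3.68 and 0.599).

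Library names begin with f13 or f14, a prefix whose meaning the labels do not give and which was treated as a possible batch. The chr9 window was positive in 25 of 31 f13 slices (80.6%) and in 23 of 38 f14 slices (60.5%). Within f13 the proximal count differed by 5.14 autosomes (SE 1.34, permutation test, p = 0.00443), against the 2.58 within f14 given above. Proximal minus distal coverage differed by 3.94 points in f13 (SE 1.69, permutation test, p = 0.0248) and 2.79 points in f14 (SE 1.12, p = 0.0279). Trans co-segregation of the centromeric ends differed by 0.489 points in f13 (SE 0.214, permutation test, p = 0.0244), against the 0.362 points in f14 given above. The direction of these 3 results was the same within both prefixes, and the test of the difference between prefixes gave p = 0.123, 0.281 and 0.483 (permutation of the prefix within groups, adjusted p = 0.431, 0.491 and 0.491). With prefix and 3 strata of coverage both held fixed, the differences were 3.34 autosomes (permutation test, p = 0.00574), 3.08 points (p = 0.000650) and 0.454 points (p = 0.00654).

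A measure of library quality moved with the split. Adjacent concordance, the percent of neighbouring windows of a positive window that are positive too, was 51.7% ± 11.6 (SD, n = 48) with the chr9 window and 42.7% ± 16.3 (SD, n = 21) without it, and the share of positive windows with no positive neighbour was 27.5% ± 12.04 and 37.8% ± 19.1. The part of library quality in the results was not tested as such. With all windows without a positive neighbour set to negative, the proximal count differed by 4.22 autosomes (SE 0.866, permutation test, p = 1e-05, the smallest that 100000 resamples can give), proximal minus distal coverage by 2.999 points (SE 0.760, p = 0.0001) and trans co-segregation by 0.389 points (SE 0.150, p = 0.00926). Reads per library were not used here, so the depth behind each call is unknown.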

How the data were processed

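The deposited table holds, for each 40 kb window of mm9 and each of 74 libraries, a value of 1 where the authors called it positive and 0 where they did not. It keeps no read count, so depth and its precision are unknown. Per the labels, reads were aligned to mm9 with Bowtie2 (version 2.1 in the processing notes). The study's methods name GAMtools with a fixed read threshold in a passage on multiplex libraries, and do not say whether it applies to these single-profile calls. Any such threshold lowers the coverage of libraries with few reads.

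Libraries with at least 1% of 61816 autosomal windows positive were split by the chr9 window. Members, measures and tests were chosen with earlier results of these data known. The call was permuted 100000 times within 5 rank strata of distal coverage (52864 windows; proximal, 4500), two-sided, and the effect is the mean difference within strata weighted by group sizes. The groups still differed in distal coverage within these strata, so least squares values are printed beside the main tests. Windows were tested by an exact conditional test with Benjamini-Hochberg adjustment, threshold 0.05. Named windows were the chr9 window, its neighbour, the 6 with the smallest p outside chromosome 9 and the 3 outside it with the most shared words. Named autosomes were the 3 highest and 3 lowest differences within strata. Named libraries were the lowest and highest counts and those next to the limit. Windows named beyond these (on chromosomes 9 and 11) were chosen after their values were seen. Sequence and genes came from NCBIM37, whose 22 chromosome lengths equalled those of the table, and GENCODE. Python 3.11.15, numpy 2.4.6, pandas 2.3.3, scipy 1.17.1, matplotlib 3.10.9 and samtools 1.23.1 were used. Alternatives changed the strata, coverage control, limit, isolated calls, repeat windows, prefix, range, inclusion of chromosome 9 and single libraries.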

Additional observations from a re-analysis of the deposited data

Results flagged for a closer look

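The difference in distal coverage by chr9 call was compared between the library name prefixes. Distal coverage was 6.40% ± 1.94 (SD, n = 25) with the chr9 window and 6.38% ± 2.81 (SD, n = 6) without it in f13, and 6.93% ± 2.95 (SD, n = 23) and 3.99% ± 1.63 (SD, n = 15) in f14. The effect in f13 minus that in f14 was -2.92 points (two-sided permutation of the prefix within groups, p = 0.0219, and 0.153 after Benjamini-Hochberg adjustment over 7 such tests, which it does not pass). Before adjustment this was under 0.05. What the prefixes stand for is not given in the labels, and the cause was not tested.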

How the results depend on the processing

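Of 124 alternative values, leave-one-out apart, 106 kept their direction and their side of the threshold. The telomeric count, which passed no test, went from 0.62 to -0.14 autosomes with 3 strata, -0.23 with least squares (-0.17 with the last 10 Mb left out of the matching, chosen after seeing the data), -0.30 with isolated positive windows set to negative, -0.012 in f14 alone and -0.61 with at least 10% of windows required. In f14 alone the proximal count (2.58), trans co-segregation (0.362 points), and the proximal minus telomeric count (2.59) and trans co-segregation (0.359 points) kept their direction and missed the threshold (p by permutation 0.144, 0.0622, 0.178 and 0.183). In f13 alone this was so for the proximal minus telomeric count (4.85, p = 0.0559) and trans co-segregation (0.626 points, p = 0.0944) and for distal coverage (0.0213 points, p = 0.983), where the difference itself was smaller than the 1.98 points over all slices; the cause was not tested. The number of single autosomes called went from 0 to 1 with 3 strata or least squares and 2 with 10 strata. The number of windows called went from 1 to 0 without isolated calls and 3 where at least 10 slices were required on each side. Leaving out each slice in turn gave 3.27 to 4.24 autosomes for the proximal count, 3.27 to 3.91 points for proximal minus distal coverage, 0.507 to 0.628 points for trans co-segregation, 0.037 to 0.99 for the telomeric count, 2.60 to 3.63 for the proximal minus telomeric count (past the threshold except without f13e4 or f13f2), 0.540 to 0.720 points for that of trans co-segregation and 1.83 to 2.19 points for distal coverage; the number of autosomes called was 0 to 1, with 1 without f13a5, f13c6, f14a2, f14f5 or f14f6. No paired analysis was possible because the labels give 1 group. With 21 slices lacking the chr9 window, differences of single autosomes have SEs of 1.58 to 4.48 points, and differences of up to 8.72 points were not called.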
